A study of Mus musculus with 6 samples.

Results

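The genes described here are the Hes and Hey effectors of Notch signalling and a set of genes that tune the pathway: Hes1, Hes5, Hes6, Hey1, Hey2, Heyl, Nrarp, Lfng, Mfng and Mib1. They were taken by symbol, with the RPKM of all rows of a symbol summed, and are 10 of the 21456 symbols with values. RPKM is the number of reads per kilobase of transcript and per mapped reads of the library, scaled to a fixed total, so levels can be compared between genes. The libraries came from CFW mouse kidneys at stage E16.5, as poly(A) RNA of sorted cells of the ureteric epithelium, the branching tree that becomes the collecting ducts. Tip cells carried a red reporter named for Wnt11 and a green reporter named for Hoxb7, and stalk cells carried the green reporter without the red, with 3 libraries each. Both groups therefore carry the green reporter, and stalk is defined by the absence of red signal, so it can hold cells of any part of the tree outside the tips. The labels give no age or number of the donor animals beyond the stage, and do not say whether animals were pooled or whether libraries came from separate litters. The p-values thus measure only the spread between these libraries, which may be technical.

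Notch is a receptor that is cut when a ligand on a neighbouring cell pulls on it, and its freed intracellular part enters the nucleus and joins the DNA-binding protein Rbpj. Hes and Hey genes are the best known targets of this complex and encode basic helix-loop-helix repressors. Hes repressors recruit corepressors such as the Tle proteins. In the collecting duct, Notch signalling is known for the choice between principal cells, which move water and sodium, and intercalated cells, which move acid and base.

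Of the genes that the reporters are named for, Wnt11 separated the groups and Hoxb7 did not. Wnt11 ranged from 423 to 930 RPKM in tip, against 1.92 to 24.5 RPKM in stalk, and Hoxb7 from 51.8 to 94.8 RPKM in tip, against 38.3 to 65.8 RPKM in stalk (limma adjusted p = 0.150). Between 12194 and 12472 genes per library reached 1 RPKM, and the sequencing depth behind the values is unknown. The test covered the 12532 genes whose average over all 6 libraries was 1 RPKM or more.

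The members did not all move in 1 direction. Transcripts of the repressor Hes1 and of the feedback inhibitor Nrarp were higher in tip, those of the repressor Heyl were higher in stalk, and 4 further tested members (Hes6, Hey1, Lfng and Mib1) did not pass the test. Hes5 and Hey2 were close to 0 in all 6 libraries, and Mfng, with a mean of 0.980 RPKM, fell just under the level for testing. Of the 7 members tested, 3 (42.9%) were called by limma at a Benjamini-Hochberg adjusted p under 0.05, where 48.6% of all genes tested were called, so the share of members called is near the background. By direction, 2 of the 7 were higher in tip, where the background was 26.1%, and 1 was higher in stalk, where it was 22.5%. The libraries of the groups did not overlap for these same 3 members, against 57.8% of all genes tested. In bulk samples such as these, fewer cells of a type and less RNA per cell cannot be told apart.

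**Figure D1:**
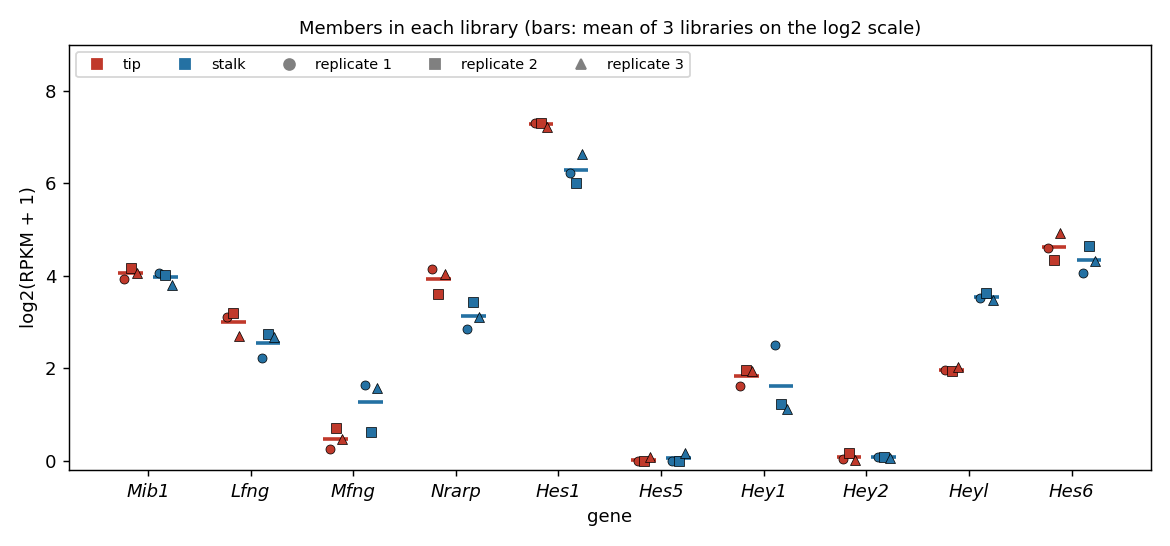
Level of each member in each library, as log2(RPKM + 1), with tip in red, stalk in blue, a marker shape for each replicate number and bars at the mean of 3 libraries. Hes1 lies far above the other members in every library, Heyl is higher in all stalk libraries, and Hes5 and Hey2 lie near 0.

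Among the genes that act on ligands and receptors, Mib1 encodes the ubiquitin ligase that drives ligands into the sending cell so that they can pull on the receptor. It stood at 14.2, 17.1 and 15.8 RPKM in tip replicates 1 to 3 and at 15.7, 15.3 and 13.0 RPKM in stalk replicates 1 to 3. The groups overlapped, and the difference of tip minus stalk was 0.09 on the log2(RPKM + 1) scale (SE 0.12, 95% interval -0.18 to 0.36, limma adjusted p = 0.561). The symbol has 5 rows with values, which carry no transcript identifier. Its leading row held 72.3% of the sum, at 11.3 to 11.99 RPKM in tip, against 9.89 to 10.5 RPKM in stalk. These ranges did not overlap, but the leading row alone was not called either (difference 0.17, limma adjusted p = 0.228).

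The Fringe enzymes add a sugar to the O-fucose residues of Notch, which changes how well the receptor answers Delta-like and Jagged ligands. Lfng, or lunatic fringe, stood at 7.63, 8.17 and 5.47 RPKM in tip and at 3.65, 5.74 and 5.37 RPKM in stalk. Tip replicate 3 lay within the stalk range and the other tip libraries lay above it. The difference was 0.45 (SE 0.19, 95% interval 0.01 to 0.90, limma unadjusted p = 0.0472, adjusted p = 0.0862), which did not pass the threshold. It passed without tip replicate 3 (0.61, adjusted p = 0.0453; range over all alternatives 0.0453 to 0.420).

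Mfng, or manic fringe, had its higher mean in stalk and was not tested in the main comparison. Mfng had 2 rows with values and 2 rows of question marks, which were dropped. It stood at 0.195, 0.640 and 0.381 RPKM in tip and at 2.13, 0.545 and 1.99 RPKM in stalk. Stalk replicate 2 lay within the tip range, while the other stalk libraries lay above it. With no filter on low values, its difference was -0.81 (SE 0.31) and was not called (limma adjusted p = 0.114). Without stalk replicate 2 it passed the filter and was called higher in stalk (-1.13, adjusted p = 0.00396). It also passed the filter without tip replicate 1, 2 or 3 and was not called in any of these (adjusted p between 0.0546 and 0.146). The remaining Fringe gene, Rfng, ranged from 8.46 to 11.7 RPKM in tip, against 8.83 to 11.1 RPKM in stalk. Lfng made up 36.2% to 46.9% of the summed Fringe RPKM in tip and 25.0% to 33.1% in stalk, and these ranges did not overlap. Mfng made up 1.20% to 3.11% in tip and 3.15% to 14.6% in stalk.

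Nrarp encodes a small ankyrin repeat protein that is induced by Notch and acts back on the Notch nuclear complex. It stood at 16.8, 11.3 and 15.5 RPKM in tip and at 6.26, 9.88 and 7.66 RPKM in stalk. Every tip library lay above every stalk library, with tip replicate 2 and stalk replicate 2 closest to each other. The mean was 14.5 ± 2.89 RPKM in tip, against 7.93 ± 1.83 RPKM in stalk (SD, n = 3 each), a 1.83-fold ratio. The difference was 0.80 (SE 0.19, limma adjusted p = 0.00897; range over all alternatives 0.00382 to 0.0390). Nrarp lies on chromosome 2 (25180758 to 25183339, plus strand, mm10) and has a single row in the table.

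Hes1 was the most abundant member in both compartments. It stood at 158, 158 and 147 RPKM in tip and at 73.8, 63.3 and 98.4 RPKM in stalk. The tip libraries lay close together and all lay above the stalk libraries, among which replicate 3 was highest. The difference was 0.99 (SE 0.15, 95% interval 0.64 to 1.34, limma adjusted p = 0.000975), with a 1.97-fold ratio of means. It was called under all 15 alternatives (0.85 to 1.16, adjusted p 0.000395 to 0.00875). Hes1 lies on chromosome 16 (30064384 to 30067796, plus strand), and 98.8% of its summed RPKM came from 1 of its 4 rows.

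Heyl, a Hey family repressor known from vascular and mural cells as well as from epithelia, showed the largest difference of the members tested. It stood at 2.92, 2.83 and 3.07 RPKM in tip and at 10.4, 11.3 and 10.1 RPKM in stalk. Both groups were tight and far apart. The mean was 2.94 ± 0.121 RPKM in tip, against 10.6 ± 0.635 RPKM in stalk (SD, n = 3 each), a 3.62-fold ratio toward stalk. The difference was -1.56 (SE 0.12, limma adjusted p = 2.81e-05) and lay between -1.85 and -1.52 in all 15 alternatives. Heyl lies on chromosome 4 (123233556 to 123249875, plus strand), and 99.8% of its RPKM came from 1 row.

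Hey1 encodes a related repressor and depended on 1 library. It stood at 2.07, 2.94 and 2.85 RPKM in tip and at 4.72, 1.36 and 1.17 RPKM in stalk. Stalk replicate 1 was the highest of all libraries, and the other stalk libraries were the lowest. With all libraries the difference was 0.22 (SE 0.35, 95% interval -0.58 to 1.02, limma adjusted p = 0.627). Without stalk replicate 1 it was 0.67 and called higher in tip (adjusted p = 0.0213), and without stalk replicate 3 it was -0.03 (adjusted p = 0.956).

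Hes6 encodes a relative of Hes1 that is known to counter Hes1 rather than to act as a Notch target itself. It stood at 23.3, 19.2 and 29.4 RPKM in tip and at 15.7, 24.2 and 18.9 RPKM in stalk. The groups overlapped and the difference was 0.27 (SE 0.19, 95% interval -0.16 to 0.71, limma adjusted p = 0.266). Of its 5 rows the leading one held 83.6% of the sum. The level of Hes1 was 5.001 to 8.22 times that of Hes6 in tip and 2.61 to 5.19 times in stalk, with tip replicate 3 inside the stalk range.

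Hes5 and Hey2, targets of Notch in many other tissues, were scarcely present. Hes5 was listed at 0 in 4 libraries, at 0.0564 RPKM in tip replicate 3 and at 0.128 RPKM in stalk replicate 3. Hey2 ranged from 0.0155 to 0.128 RPKM in tip, against 0.0399 to 0.0690 RPKM in stalk. No fold is given for these genes, since their values lie near 0 and the depth is unknown.

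The order of levels was similar at its top and differed below it. In both compartments Hes1 came first, then Hes6, then Mib1, and in neither did the range of Hes1 touch that of Hes6, nor that of Hes6 touch that of Mib1. In stalk the last 2 came close, with the lowest Hes6 library at 15.72 RPKM and the highest Mib1 library at 15.71 RPKM. In tip, Nrarp followed and overlapped with Mib1, then came Lfng, and then Heyl and Hey1, which overlapped with each other. In stalk, Heyl came next after Mib1, above Nrarp and Lfng without overlap with Nrarp. Lfng there overlapped with Hey1, and Hey1 with Mfng. Hey2 and Hes5 were last in both and overlapped.

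Because Hes1 and Heyl lay on opposite sides, the make-up of the repressor transcripts differed between compartments. Of the summed RPKM of Hes1, Hes5, Hey1, Hey2 and Heyl, Hes1 made up 96.1% to 96.9% in tip and 82.9% to 89.6% in stalk. Heyl made up 1.73% to 2.004% in tip and 9.21% to 14.9% in stalk. Neither pair of ranges overlapped. Hes1 was thus still the main transcript of the 5 genes in every stalk library. The ratio of Hes1 to Heyl was 54.3, 55.8 and 47.9 in tip and 7.08, 5.58 and 9.72 in stalk. These shares are ratios within a library and do not move when a whole library is rescaled.

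**Figure D2:**
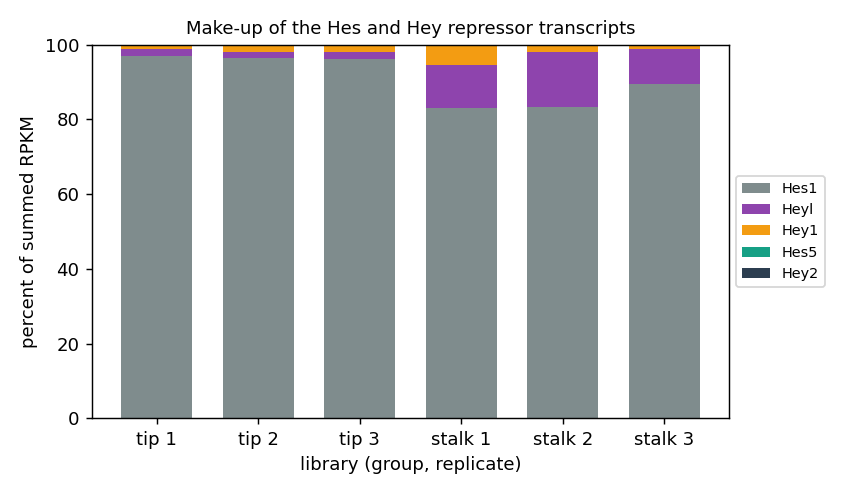
Share of each of 5 repressor genes in their summed RPKM, as percent, for each of the 6 libraries (group and replicate under each bar). Hes1 fills at least 96.1% of every tip bar and at most 89.6% of any stalk bar, and the share of Heyl is larger in each stalk library.

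Promoter sequence is shown for 4 members to set those with near-zero transcripts beside those with clear ones. RefSeq windows (build GRCm38.p6, from 250 bases before to 50 bases after a start) were found for 5 members: Hes5, Hes6, Hey2, Lfng and Nrarp. They were searched on both strands for GTGGGAA, the core letters bound by Rbpj, and for CACGTG, an E-box of the kind that Hes and Hey proteins can bind. GTGGGAA was present in 6.38% and CACGTG in 7.15% of 32841 RefSeq promoter windows of the same length. The 250 bases before the start are printed 5′ to 3′ on the gene's strand, with matches to either word on either strand in capitals.
Hes5 (chr4:154960673-154960922, plus strand): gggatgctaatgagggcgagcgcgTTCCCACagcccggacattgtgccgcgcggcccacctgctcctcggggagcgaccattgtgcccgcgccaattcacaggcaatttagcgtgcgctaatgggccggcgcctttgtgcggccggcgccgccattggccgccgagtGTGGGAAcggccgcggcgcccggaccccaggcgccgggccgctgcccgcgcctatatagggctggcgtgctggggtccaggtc
Hey2 (chr10:30842784-30843033, minus strand): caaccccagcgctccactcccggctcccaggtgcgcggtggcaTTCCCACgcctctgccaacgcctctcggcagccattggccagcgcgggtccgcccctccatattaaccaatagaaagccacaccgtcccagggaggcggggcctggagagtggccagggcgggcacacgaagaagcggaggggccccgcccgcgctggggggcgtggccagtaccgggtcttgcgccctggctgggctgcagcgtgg
Lfng (chr5:140607091-140607340, plus strand): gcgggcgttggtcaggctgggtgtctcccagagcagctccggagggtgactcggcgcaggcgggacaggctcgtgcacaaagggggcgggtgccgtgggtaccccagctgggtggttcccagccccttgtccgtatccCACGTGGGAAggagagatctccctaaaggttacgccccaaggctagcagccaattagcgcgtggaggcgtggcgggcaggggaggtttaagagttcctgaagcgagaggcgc
Nrarp (chr2:25180508-25180757, plus strand): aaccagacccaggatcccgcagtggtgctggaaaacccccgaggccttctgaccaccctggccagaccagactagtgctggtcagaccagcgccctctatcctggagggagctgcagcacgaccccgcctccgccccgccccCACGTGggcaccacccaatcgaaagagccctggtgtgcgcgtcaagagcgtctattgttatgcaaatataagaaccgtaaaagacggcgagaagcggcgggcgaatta

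GTGGGAA occurred in the windows of 3 of these 5 members. In Hes5 it began 83 bases before the start on the gene's strand, and a match on the opposite strand began 226 bases before it. In Hey2, an opposite-strand match began 207 bases before the start, and another on the gene's strand began 4 bases before the start and runs past the printed stretch. In Lfng it began 109 bases before the start and shares 3 bases with a CACGTG that begins 112 bases before it. Nrarp held CACGTG 108 bases before its start and no GTGGGAA in this window, and the windows of Hes6 held neither word. GTGGGAA was thus present both in members with transcripts near 0 (Hes5, Hey2) and in Lfng, while CACGTG was found in Lfng and Nrarp. A match describes the letters only and is not evidence of binding.

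The other genes of the pathway give the setting in which these members were measured. Of 60 genes in 8 roles, 48 were tested, of which 9 were called toward tip and 16 toward stalk, with a median difference of -0.15 against 0.05 over all genes tested. In all, 52.1% of these were called, near the background of 48.6%. The number higher in stalk was 9 without tip replicate 1, and 10 with a minimum mean of 5 RPKM, where fewer were tested. Among ligand genes, Dll4 (-2.29, adjusted p = 2.98e-05) and Dll1 (-1.66, adjusted p = 0.00102) were higher in stalk by limma and Jag1 (0.70, adjusted p = 0.00281) was higher in tip. Dll4 was low in tip, at 0.129 to 0.553 RPKM, against 5.39 to 6.27 RPKM in stalk. The size of its difference therefore depends on the pseudocount, and it ran from -4.06 to -2.14 over the alternatives. Jag1 was the most abundant ligand gene, at 31.4 ± 2.18 RPKM in tip, against 19.2 ± 3.05 RPKM in stalk (SD, n = 3 each). All 4 tested ligand genes were called, 3 of them higher in stalk, where the background was 22.5%, and 1 higher in tip, where it was 26.1%. Lists as short as these roles are described by their counts alone. Of 4 receptor genes only Notch3, the most abundant by the mean of all 6 libraries though not in tip replicate 2, was called (-0.44, limma adjusted p = 0.0148), a call lost without tip replicate 1 (adjusted p = 0.0613) or tip replicate 3 (adjusted p = 0.0521).

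Of 8 tested genes that cleave the receptor, 6 were called toward stalk and 0 toward tip, with a median of -0.47, where 22.5% of all genes tested were called toward stalk and 26.1% toward tip. Furin, which cuts Notch on its way to the surface, had a difference of -0.86 (limma adjusted p = 0.00162), and the gamma-secretase subunit gene Aph1b one of -0.70 (adjusted p = 0.00796). Ncstn, the most abundant of them, was at 43.4 ± 0.848 RPKM in tip, against 50.3 ± 2.21 RPKM in stalk with no overlap, and was not called (adjusted p = 0.0751). It was called toward stalk with median ratio scaling (-0.25, adjusted p = 0.0305) and with no filter on low values (-0.21, adjusted p = 0.0335).

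Of 4 genes of receptor glycosylation, 2 were higher in tip: Poglut1, which adds O-glucose to Notch (0.88, limma adjusted p = 0.00525), and Eogt, which adds GlcNAc (0.62, adjusted p = 0.0164). Eogt lost its call without tip replicate 1 (adjusted p = 0.0684). Of 11 tested genes of ligand and receptor trafficking, 2 were called toward tip and 4 toward stalk. In all, 54.5% were called, near the background of 48.6%. Dtx4, a Deltex ubiquitin ligase gene, had a difference of 1.24 (adjusted p = 0.00353) and Dtx3l one of 0.79 (adjusted p = 0.0126), the latter not called without tip replicate 3 (adjusted p = 0.0551). Numb, which restrains Notch, had a difference of -0.63 (limma adjusted p = 0.00115). It was not called when only its highest row was used (-0.35, adjusted p = 0.114). Neurl1b, another ligase gene for Notch ligands, was barely called toward stalk (-0.83, limma adjusted p = 0.0461). That call was lost with either smaller pseudocount, with no filter, with its highest row alone, with the replicate block, and without any single library other than stalk replicate 1 (adjusted p between 0.0508 and 0.138). The most abundant gene of this role, Dtx3, was not called (0.17, adjusted p = 0.175).

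In the nucleus, Rbpj had a small difference toward tip (0.34, limma adjusted p = 0.0259), at 11.3 ± 0.362 RPKM in tip, against 8.72 ± 0.352 RPKM in stalk (SD, n = 3 each). The call was lost with the replicate block (adjusted p = 0.0842), without tip replicate 1, 2 or 3 or stalk replicate 2, and without tip replicate 2 and stalk replicate 1 together (adjusted p between 0.0576 and 0.0898), and the difference of its highest row alone was 0.05 (adjusted p = 0.832). Kat2b, a histone acetyltransferase gene, was called toward stalk (-0.46, limma adjusted p = 0.0247), a call lost with the replicate block (adjusted p = 0.0519) and without tip replicate 1 or 3 or stalk replicate 2 or 3 (adjusted p between 0.0693 and 0.0880). Snw1, the most abundant gene of this role, was not called (0.05, adjusted p = 0.636). Among the 9 corepressor genes, 3 were called toward tip and 1 toward stalk (44.4% in all, near the background of 48.6%). The Groucho family genes, whose proteins bind Hes repressors, were split. Tle1 stood at 34.2 ± 3.91 RPKM in tip, against 18.4 ± 2.02 RPKM in stalk (0.86, limma adjusted p = 0.00066), and Tle2 at 24.0 ± 2.05 and 56.4 ± 4.31 RPKM (-1.20, adjusted p = 5.26e-05). Ctbp2 (0.49, adjusted p = 0.00291) and Ctbp1 (0.43, adjusted p = 0.00667) were higher in tip, and Ctbp1 was the most abundant. Of the remaining relatives of Hes and Hey, Bhlhe40 alone was tested and was not called (-0.33, limma adjusted p = 0.230), but was without tip replicate 2 (-0.54, adjusted p = 0.0352) and without tip replicate 2 and stalk replicate 1 together (-0.55, adjusted p = 0.0436).

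**Figure D3:**
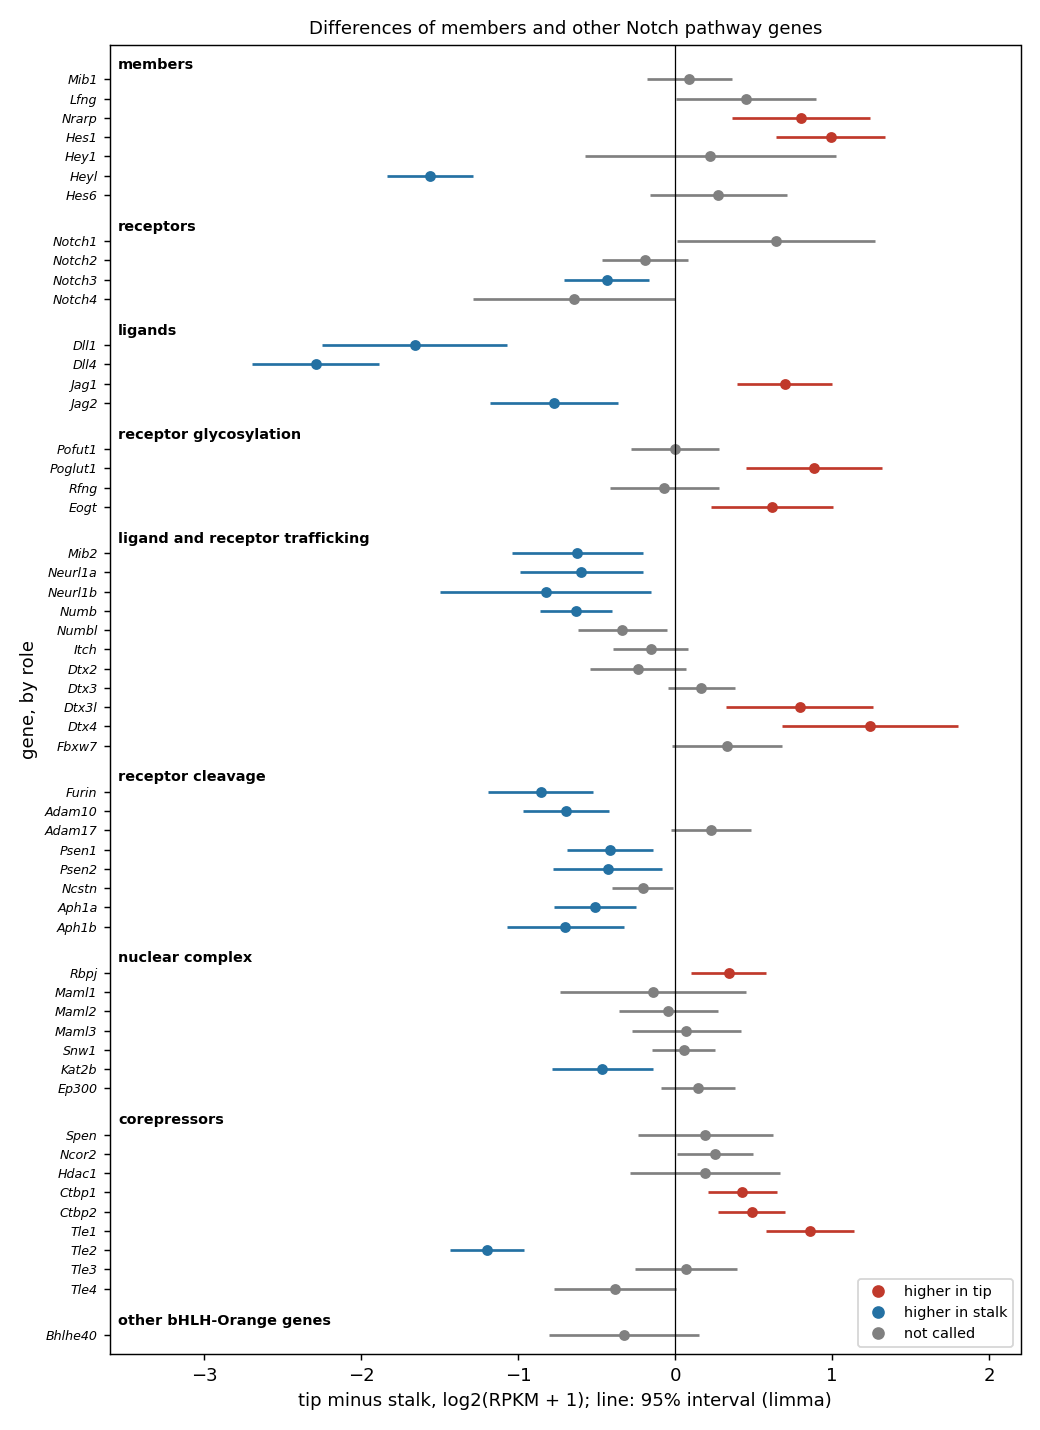
Difference of tip minus stalk on the log2(RPKM + 1) scale for the 7 tested members and 48 other tested Notch pathway genes, grouped by role, with lines for the 95% interval from limma and colour for the call. Heyl, Dll1 and Dll4 lie furthest toward stalk and Dtx4 and Hes1 furthest toward tip.

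Markers of differentiated duct cells and of urothelium were mostly higher in stalk. All 10 principal cell markers and all 8 tested intercalated cell markers were higher in stalk, where the background was 22.5% of all genes tested. For the principal cell list the summed levels were 1013 to 1419 RPKM in stalk and 43.4 to 83.7 RPKM in tip. For the intercalated cell list the sums were 299.9 to 518 RPKM in stalk and 2.84 to 4.72 RPKM in tip. Urothelial markers were higher in stalk for 6 of 7 tested, with sums of 214 to 492 RPKM against 2.95 to 3.63 RPKM in tip. The exception, Trp63, made up most of each tip sum. It stood at 2.06 to 2.51 RPKM in tip, against 0.664 to 2.81 RPKM in stalk. Upk2 and Krt5 were listed at 0 in every tip library. The part of these cell types in the differences of Hes1, Nrarp and Heyl was not tested.

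Heyl, Hey1 and Mfng are also known from blood vessels, so endothelial markers are set beside them. All 11 tested of 12 endothelial markers were higher in stalk, where the background was 22.5% of all genes tested. The summed level of the 12 was 26.6, 28.4 and 30.5 RPKM in tip and 123, 74.2 and 100.01 RPKM in stalk. Stalk replicate 1 was highest, as it was for Hey1 (4.72 RPKM) and Mfng (2.13 RPKM), and stalk replicate 2 was the lowest stalk library, as it was for Mfng (0.545 RPKM). Heyl did not follow that order, being highest in stalk replicate 2 (11.3 RPKM). Hey1 followed it only in stalk replicate 1. Its lowest library was stalk replicate 3 (1.17 RPKM), and its tip libraries (2.07 to 2.94 RPKM) all lay above stalk replicates 2 and 3. Of the defining markers, Pecam1 ranged from 6.54 to 8.69 RPKM in stalk, Cdh5 from 5.30 to 9.40 RPKM and Kdr from 3.02 to 3.90 RPKM. In tip, Pecam1 ranged from 0.709 to 1.05 RPKM, Cdh5 from 0.669 to 1.07 RPKM and Kdr from 0.500 to 0.790 RPKM. The most abundant of the list, Egfl7 (20.1 to 29.7 RPKM) and Plvap (13.9 to 24.3 RPKM), were above Heyl in every stalk library. None of the 12 markers was at 0 in all libraries of a group. The part of endothelial cells in these values was not tested.

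**Figure D4:**
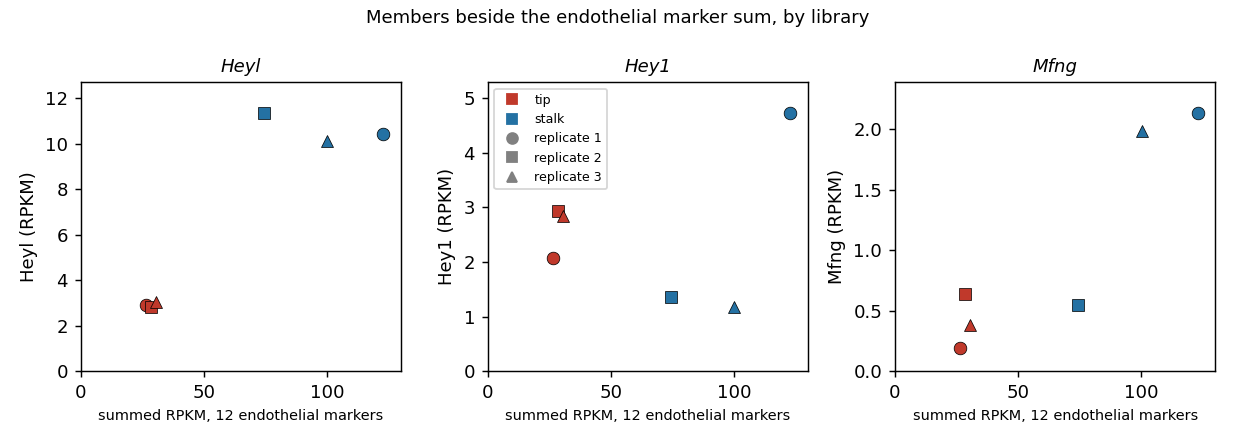
RPKM of Heyl, Hey1 and Mfng against the summed RPKM of 12 endothelial markers, 1 point for each library, with tip in red, stalk in blue and a marker shape for each replicate number. Hey1 and Mfng are highest in stalk replicate 1, where the marker sum is 123 RPKM, and Heyl is nearly level over the stalk libraries. Hey1 is lower in stalk replicates 2 and 3 than in every tip library. Egfl7 alone makes up most of each tip sum.

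Markers of mural cells and stroma were low, with a sum over 12 genes of 5.36 to 10.1 RPKM in tip, against 6.53 to 9.82 RPKM in stalk. None of the 2 tested was called by limma, and neither had an unadjusted p under 0.05. Their defining genes Rgs5, Pdgfrb and Cspg4 reached at most 2.14, 0.456 and 0.855 RPKM in any library, and the most abundant of the list, Acta2 and Col3a1, at most 3.46 and 1.96 RPKM. Immune markers summed to 12.8 to 15.6 RPKM in tip, against 12.2 to 19.5 RPKM in stalk. Of 3 tested, Cd68 was higher in tip and Laptm5 in stalk. Fcer1g, C1qa and Cx3cr1 were at 0 in every stalk library. In tip they were also near 0, reaching at most 0.300, 0.0949 and 0.0242 RPKM. Ptprc stood at 3.45 to 7.14 RPKM over all libraries, Csf1r at no more than 0.518 RPKM and Cd68 at 4.71 to 10.7 RPKM.

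Of the early nephron list, whose cells use Notch strongly, 8 of 12 were tested, 3 of these were higher in tip against 1 in stalk, with sums of 217 to 291 RPKM in tip, against 149.6 to 204 RPKM in stalk. Several of these genes are also expressed in the ureteric tree. Lhx1 stood at 11.9 to 18.5 RPKM in tip, against 1.51 to 3.84 RPKM in stalk, Wnt4 at 1.83 to 3.55 and 43.6 to 47.8 RPKM, and Pax8 overlapped between groups. Nephron progenitor markers summed to 3.28 to 3.89 RPKM in tip, against 1.44 to 3.37 RPKM in stalk, and Cited1, the only 1 of 8 tested, was higher in tip. Six2 reached at most 0.718 RPKM and Meox1 at most 0.386 RPKM. The part of nephron lineage cells in the members' values was not tested.

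The genes most like the leading members over the 6 libraries are given as a description. By Pearson correlation of log2(RPKM + 1), the 3 tested genes most like Hes1 were Gnb1 (0.997), Rab34 (0.996) and Smn1 (0.995), and 19 genes reached 0.99. For Heyl they were Rabgef1 (0.9995), Pbxip1 (0.999) and Tmem9b (0.999), and 258 genes reached 0.99. The points are 3 tip and 3 stalk libraries, so these values mostly follow the step between the groups.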

How the data were processed

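Messenger RNA of sorted tip and stalk cells was sequenced in 3 libraries each. Values are RPKM as the authors deposited them, in 1 table, and mm10, bcl2fastq 2.17, TopHat2 and Partek are named by the submitters' processing notes. The sources used here give neither annotation, quantification settings nor use of strand, so reads of overlapping antisense genes cannot be told apart. Of 93615 rows, 24545 held question marks in all 6 columns and were dropped, and the rest were summed by symbol. The smallest values (1.16e-42 RPKM for a Mfng row) cannot be whole reads, so depth is unknown and no counting interval is possible. The sum of RPKM per library (345123 to 366035) reflects the unit.

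Genes averaging 1 RPKM or more were tested with limma 3.58.1 (R 4.3.3) on log2(RPKM + 1), with group as the only term, a mean-variance trend, two-sided tests, and Benjamini-Hochberg adjustment over 12532 genes at 0.05. The pseudocount understates changes of low genes. The model was tested on simulated data. Alternatives changed pseudocount, filter, scaling, row summing, trend, replicate block and libraries. Members, gene lists and naming rules (every member, and per role up to 2 called genes each way plus the most abundant) were chosen with earlier results of these data known. Rfng, Krt5, Upk2, Cd68, Laptm5 and a few other markers were added with their values in view. Ratios need every library at 0.05 RPKM or more. Coordinates are from GENCODE M21 on the same build, and promoters from RefSeq. Replicate numbers were not taken as pairs.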

Additional observations from a re-analysis of the deposited data

How the results depend on the processing

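Over 15 alternatives, Hes1, Nrarp and Heyl kept direction and call in each. Comparing each tested member under each alternative with its main value, 102 values kept direction and call (or, for uncalled values, stayed uncalled), and the 2 exceptions were Hey1 without stalk replicate 1 (0.67) and Lfng without tip replicate 3 (0.61). With 1 library left out, the members called ranged from 2 to 3 toward tip and from 1 to 2 toward stalk, the added stalk gene being Mfng, and other pathway genes called higher in stalk ranged from 9 to 14. With a minimum mean of 5 RPKM, 10 pathway genes were higher in stalk, where fewer genes were tested. With a replicate block, 2716 genes were called toward tip and 2380 toward stalk, against 3274 and 2815 without it, the members called stayed at 2 toward tip and 1 toward stalk, and other pathway genes numbered 8 and 12, against 9 and 16. Among the genes named, the block ended the calls of Rbpj, Kat2b and Neurl1b. Deviations from the group means correlated at -0.30, -0.34 and 0.09 between same-numbered tip and stalk libraries, so the numbers were not taken as pairs, and each library correlated best with one of another number (0.33 to 0.56). The highest of these values was between tip replicate 2 and stalk replicate 1, the libraries left out together in 1 alternative. Low values limit Hes5, Hey2 and Mfng, for which the depth that would bound them is unknown.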
